A study of Mus musculus with 6 samples.

Results

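The genes described here mark GABAergic neurons, the inhibitory neurons of the brain, and above all the cortical interneurons among them. They were taken from a given list of 10 genes by choosing the array rows whose platform annotation names that gene and no other. All 10 had exactly 1 such row, out of 19938 genes named by single-gene rows. By role they are Gad1, Gad2 and Slc32a1 (making and loading GABA), Lhx6, Dlx1 and Dlx5 (transcription factors of specification) and Calb1, Calb2, Npy and Sst (markers of maturing interneuron subtypes). RNA of whole embryonic mouse brains, taken at embryonic day 16.5, was read on Affymetrix Mouse Gene 1.0 ST arrays, 1 brain per array. The groups were 3 wild-type brains and 3 brains of the Tdp2Δ1-3 genotype, a deletion in Tdp2. Tdp2 encodes an enzyme that frees DNA ends from trapped topoisomerase II. The labels give no strain, sex, litter or breeding scheme, and name no promoter or Cre driver.

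Cortical interneurons are born below the cortex, in the ganglionic eminences, and migrate into it. Dlx homeobox factors start the GABAergic programme in the progenitors, and Lhx6 carries it on in cells from the medial eminence, while calcium-binding proteins and neuropeptides appear later, as the cells settle and mature. The same genes are also used outside the cortex. Calb1 is strong in Purkinje cells, Calb2 in parts of the thalamus and hindbrain, and Npy and Sst in the hypothalamus. GABA-making genes mark striatal, midbrain, hindbrain and cerebellar neurons as well, so a whole-brain value sums over all of these cells.

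The promoters of 4 members are shown because their genes form natural pairs, the neuropeptide genes Npy and Sst and the GABA-synthesis genes Gad1 and Gad2. Only 1 gene of each pair passed the test between genotypes. Sst did not pass at -0.35, and Gad1 lost its call with any 1 array left out. The contrast within a pair was not tested. Each sequence is the 250 bases before a RefSeq transcript start, 5′ to 3′ on the gene's own strand, in build GRCm38.p6. The Npy window is chr6:49822460-49822709 on the plus strand and the Sst window chr16:23890845-23891094 on the minus strand. The Gad1 window is chr2:70561879-70562128 and the Gad2 window chr2:22622077-22622326, both on the plus strand. The windows of Sst, Gad1 and Gad2 lie inside the gene's annotated span, downstream of another annotated start. Capitals mark matches, on either strand, to TGACGTCA (the cyclic AMP response element), its 5-base part TGACG, the TATA-type strings TATAAA and ATAAAA, and TAATTA, a core bound by many homeodomain proteins.
Npy: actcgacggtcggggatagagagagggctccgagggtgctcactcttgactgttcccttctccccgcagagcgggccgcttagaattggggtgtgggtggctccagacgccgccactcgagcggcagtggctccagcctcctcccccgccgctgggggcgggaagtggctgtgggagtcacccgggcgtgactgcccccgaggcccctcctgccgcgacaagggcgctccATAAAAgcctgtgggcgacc
Sst: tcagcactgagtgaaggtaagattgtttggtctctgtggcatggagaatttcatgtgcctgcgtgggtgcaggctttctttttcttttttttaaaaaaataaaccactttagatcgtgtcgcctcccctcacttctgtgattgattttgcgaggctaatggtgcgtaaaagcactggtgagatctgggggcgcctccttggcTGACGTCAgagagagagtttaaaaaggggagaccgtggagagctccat
Gad1: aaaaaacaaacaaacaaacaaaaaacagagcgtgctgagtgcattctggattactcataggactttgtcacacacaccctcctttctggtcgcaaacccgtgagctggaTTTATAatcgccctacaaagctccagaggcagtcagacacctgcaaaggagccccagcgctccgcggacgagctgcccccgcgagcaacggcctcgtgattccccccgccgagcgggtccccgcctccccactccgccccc
Gad2: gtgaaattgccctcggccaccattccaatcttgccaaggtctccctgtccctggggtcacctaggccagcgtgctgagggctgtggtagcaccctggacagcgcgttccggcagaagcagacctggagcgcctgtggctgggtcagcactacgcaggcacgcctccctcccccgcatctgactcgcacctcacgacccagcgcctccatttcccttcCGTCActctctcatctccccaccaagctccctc

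Sst held the full TGACGTCA at bases -48 to -41 before the start, a string found in 1.55% of all 32851 promoter windows of this length. TGACG lies inside that string on both strands, and by itself was found in 17.8% of windows. Npy held no TGACG and held ATAAAA at -20 to -15 (17% of windows). Gad1 held TATAAA on the opposite strand at -141 to -136 (12.4% of windows), and Gad2 held TGACG on the opposite strand at -33 to -29. Promoters of 7 members were in the table, in 9 windows, and those of Calb1, Calb2 and Dlx5 were not. TAATTA was in none of the 9 windows, and in 4.84% of all windows. A match is a description of the letters, and these arrays do not measure binding.

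Each array value is a log2 value centred on the median of its row over the 6 arrays. A difference between brains can be read from it, but the level of a gene cannot, so neither the order of the members by abundance nor the presence of brain markers could be checked. Because every row has a median of 0 over 6 values, its middle 2 values lie at equal distances on either side of 0. Tdp2 itself was lower in all 3 mutant brains (-2.07 ± 0.10, SE; limma adjusted p = 0.00035), on a row that may hold probes outside the deletion. Array medians lay between -0.011 and 0.014. With 3 arrays per genotype, the number of arrays limits the precision of every value below. In these bulk samples, fewer cells of a type and less RNA per cell cannot be told apart.

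In the mutant brains 4 of the 10 genes were called lower, at a limma adjusted p under 0.05, and 0 were called higher. Over all 23410 gene rows tested, 4.13% were called lower and 2.34% higher (6.47% in either direction). The members, and the lists below, were chosen with earlier results of these data known, so their counts are not independent of them. Calb2, Npy, Calb1 and Gad1 fell, 8 of the 10 differences were negative, and the median difference of the 10 was -0.21, against 0.01 over all rows. Of the 4 maturation markers 3 fell, of the 3 GABA synthesis and loading genes 1 fell, and 0 of the 3 specification factors passed. At an unadjusted p under 0.05 by limma, 6 members were lower and 0 higher, against 11.8% of all rows lower and 10% higher. The genotype groups did not overlap for 8 genes, with all mutants lower for 7 and all mutants higher for 1. Over all rows, 12.6% had all mutants lower and 13.1% all mutants higher.

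**Figure D1:**
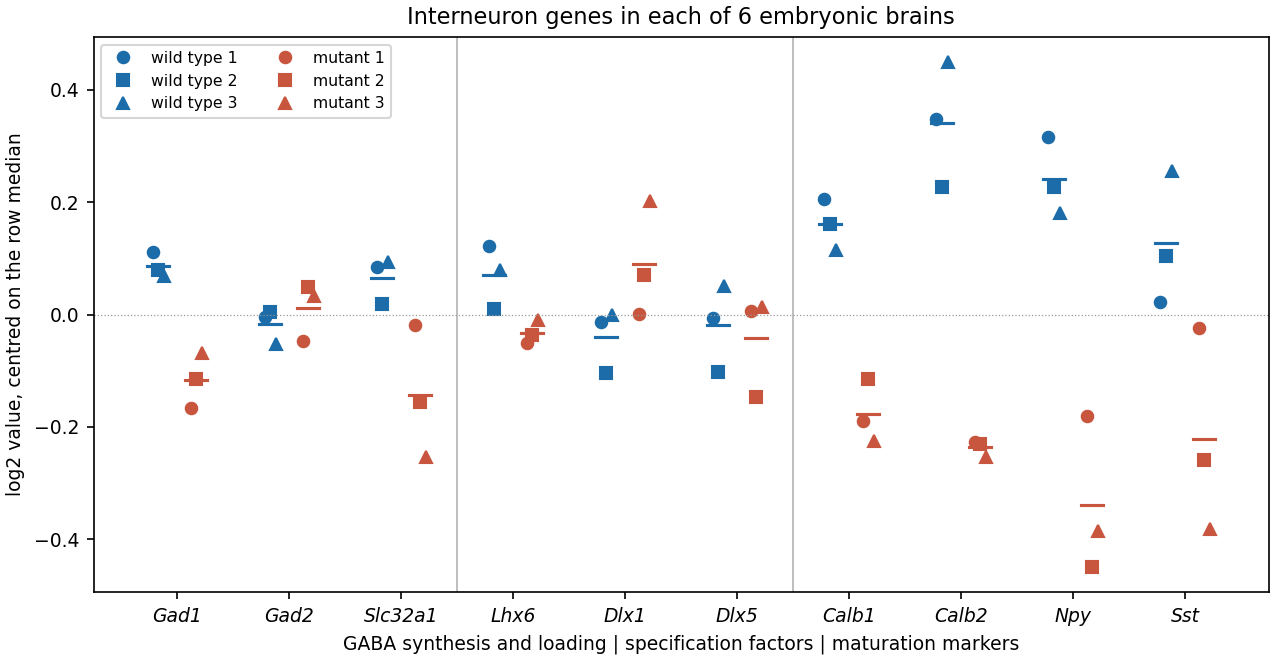
Centred log2 value of each gene (y axis) in each of the 6 brains, wild type in blue and mutant in red; the marker shape gives the replicate number and short lines the group means. Calb1, Calb2 and Npy show the widest gaps between the genotypes, while Gad2 and Dlx5 overlap.

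Calb2 encodes calretinin, a calcium-binding protein of several interneuron classes. Its centred log2 values were 0.35, 0.23 and 0.45 in wild-type replicates 1, 2 and 3, and -0.23, -0.23 and -0.25 in mutant replicates 1, 2 and 3. The mutants lay close together (SD 0.014), well below the lowest wild type, and the wild types were more spread (SD 0.11). Taking wild type from mutant gave a difference of -0.58 ± 0.06 (SE, n = 3 in each group), or 1.49-fold less (limma adjusted p = 0.00476). Calb2 was the only member to pass in each of the fits that left out 1 array, with limma adjusted p between 0.00587 and 0.0389.

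Npy encodes neuropeptide Y, a peptide transmitter of interneurons and of hypothalamic neurons. Its wild-type values, in the same order, were 0.32, 0.23 and 0.18, and its mutant values -0.18, -0.45 and -0.39. Every mutant lay below every wild type, with mutant replicate 1 the nearest to them. The difference was -0.58 ± 0.07 (SE, n = 3 in each group), or 1.49-fold less (limma adjusted p = 0.00853). Without mutant replicate 2 the difference was -0.52 and did not pass (limma adjusted p = 0.0519).

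Calb1 encodes calbindin-D28k, a calcium buffer of many interneurons and of Purkinje cells. Its wild-type values were 0.20, 0.16 and 0.12, and its mutant values -0.19, -0.12 and -0.23. The groups were separate by 0.23, and both were tight, with SDs of 0.045 and 0.056. Calb1 fell by 0.34 ± 0.05 (SE), 1.26-fold (limma adjusted p = 0.0109). Without wild-type replicate 2 the same difference of -0.34 did not pass (limma adjusted p = 0.0539).

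Sst encodes somatostatin, the peptide of a large interneuron class from the medial eminence. Its wild-type values were 0.02, 0.10 and 0.26, and its mutant values -0.02, -0.26 and -0.38. The groups did not overlap, but wild-type replicate 1 and mutant replicate 1 were only 0.046 apart. The difference of -0.35 ± 0.10 (SE) was as large as that of Calb1 but less precise, and did not pass (limma adjusted p = 0.0764, 95% interval -0.57 to -0.13). Without mutant replicate 1 the difference was -0.45 and passed (limma adjusted p = 0.0156).

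The series text sets a fold limit of 1.5. Calb2 and Npy, both at 1.49-fold, fell just short of it, so 0 of the 10 genes were called at 1.5-fold by limma, where 0.453% of all rows were called lower and 0.188% higher. That count was 2 with array medians set equal, 1 after cyclic loess, 1 with array weights, and 0 to 2 with 1 array left out.

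Gad1 encodes GAD67, the enzyme that makes most GABA in the brain. Its wild-type values were 0.11, 0.08 and 0.07, and its mutant values -0.17, -0.11 and -0.07. All mutants were lower, and mutant replicate 1, the nearest to the wild types for Npy, was the lowest for Gad1. Gad1 fell by 0.20 ± 0.04 (SE), 1.15-fold (limma adjusted p = 0.0373). Its call was lost with any 1 array left out, at limma adjusted p between 0.0588 and 0.141 and differences between -0.23 and -0.18.

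Gad2 encodes GAD65, the second GABA-synthesizing enzyme, which is found mainly at nerve terminals. Its wild-type values were -0.0037, 0.0037 and -0.05, and its mutant values -0.05, 0.05 and 0.03. The genotypes overlapped, and the difference was 0.03 ± 0.05 (SE; limma adjusted p = 0.785). The 95% interval ran from -0.08 to 0.14, which does not reach the Gad1 difference of -0.20. The contrast between Gad1 and Gad2 was not tested.

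Slc32a1 encodes the transporter that loads GABA into synaptic vesicles. Its wild-type values were 0.08, 0.02 and 0.09, and its mutant values -0.02, -0.16 and -0.25. All mutants were lower, with a gap of only 0.036 between wild-type replicate 2 and mutant replicate 1. The difference of -0.21 ± 0.06 (SE) was as large as that of Gad1 and did not pass (limma adjusted p = 0.101, 95% interval -0.36 to -0.06). Without mutant replicate 1 it was -0.27 and passed (limma adjusted p = 0.0242).

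Of the 3 specification factors 0 passed, and their differences lay on both sides of 0. Lhx6, the LIM homeobox factor of interneurons from the medial eminence, had wild-type values of 0.12, 0.0091 and 0.08 and mutant values of -0.05, -0.04 and -0.0091. All mutants were lower, by a gap of 0.018, and the difference was -0.10 ± 0.05 (SE; limma adjusted p = 0.246, 95% interval -0.21 to 0.0035). The interval for Lhx6 includes 0.

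Dlx1, a homeobox factor of GABAergic progenitors and young interneurons, had wild-type values of -0.01, -0.10 and -0.00013 and mutant values of 0.00013, 0.07 and 0.20. It was the only member with all mutants higher, by a gap of 0.000252, and the difference was 0.13 ± 0.06 (SE; limma adjusted p = 0.275, 95% interval -0.01 to 0.27). Dlx1 passed as higher with array weights only (limma adjusted p = 0.0366), in a fit that rests mostly on replicate 2 of each genotype. Dlx5, a second homeobox factor of the eminences, had wild-type values of -0.0056, -0.10 and 0.05 and mutant values of 0.0056, -0.15 and 0.01. The genotypes overlapped throughout, and the difference was -0.02 ± 0.06 (SE; limma adjusted p = 0.885, 95% interval -0.17 to 0.12).

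Dlx1 lies next to Dlx2, and Dlx5 next to Dlx6, in the RefSeq gene order. Dlx2 and Dlx6 were chosen after their values were seen. Dlx2 differed by 0.13 ± 0.06 (SE; limma adjusted p = 0.206) and Dlx6 by 0.14 ± 0.07 (SE; limma adjusted p = 0.315). Of these 4 Dlx genes 0 were called by limma.

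A wider list of specification factors was read beside these. Of 21 listed, 18 were measured, 2 rose and 16 did not pass, with a median difference of 0.06. All mutants were lower for 4 of the 18 and higher for 5, where 12.6% and 13.1% of all rows were so. The genes that rose were Nkx2-1, the factor that sets medial eminence identity, by 0.25 ± 0.05 (SE; limma adjusted p = 0.0294), and Gsx2, a factor of lateral eminence progenitors, by 0.23 ± 0.05 (SE; limma adjusted p = 0.0342). All mutants were higher for both, with Nkx2-1 at -0.07, -0.10 and -0.10 in wild-type brains against 0.19, 0.07 and 0.21 in mutant ones. These are whole-brain values, so neither rise can be placed in the eminences. Etv1 (-0.21, limma adjusted p = 0.052), Prox1 (-0.18, limma adjusted p = 0.0747) and Nr2f1 (0.17, limma adjusted p = 0.122) did not pass. Leaving out any 1 array other than mutant replicate 1 left 0 of the 18 genes called higher, and the count was 1 after cyclic loess and 6 with array weights.

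A wider list of maturation markers held 21 genes, of which 19 were measured. Of these 7 fell and 12 did not pass, with a median of -0.23. Rgs4, a regulator of G protein signalling, fell by 0.53, and Ndnf, a marker of neurogliaform cells, by 0.53. The tachykinin gene Tac1 fell by 0.39, and Htr3a, the serotonin receptor gene of interneurons from the caudal eminence, by 0.34. The potassium channel gene Kcnc2 fell by 0.39, the sodium channel gene Scn1a by 0.36 and the AMPA receptor gene Gria4 by 0.35. For these 7 genes SEs ran from 0.05 to 0.11 and limma adjusted p from 0.0104 to 0.0333. Tac1 also marks striatal neurons, and Ndnf, Scn1a and Gria4 are not restricted to interneurons.

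The remaining maturation markers included Nos1 at -0.23 ± 0.06 (SE; limma adjusted p = 0.0524). Pvalb and Vip, which mark interneuron classes that mature after birth, were chosen after their values were seen, and each differed by 0.00 (limma adjusted p = 0.988 and 0.98). Their 95% intervals ran from -0.16 to 0.17 and from -0.13 to 0.14. Leaving out wild-type replicate 1 or mutant replicate 3 gave 4 falls, leaving out wild-type replicate 2 gave 0 and leaving out mutant replicate 2 gave 1, while array weights gave 11.

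**Figure D2:**
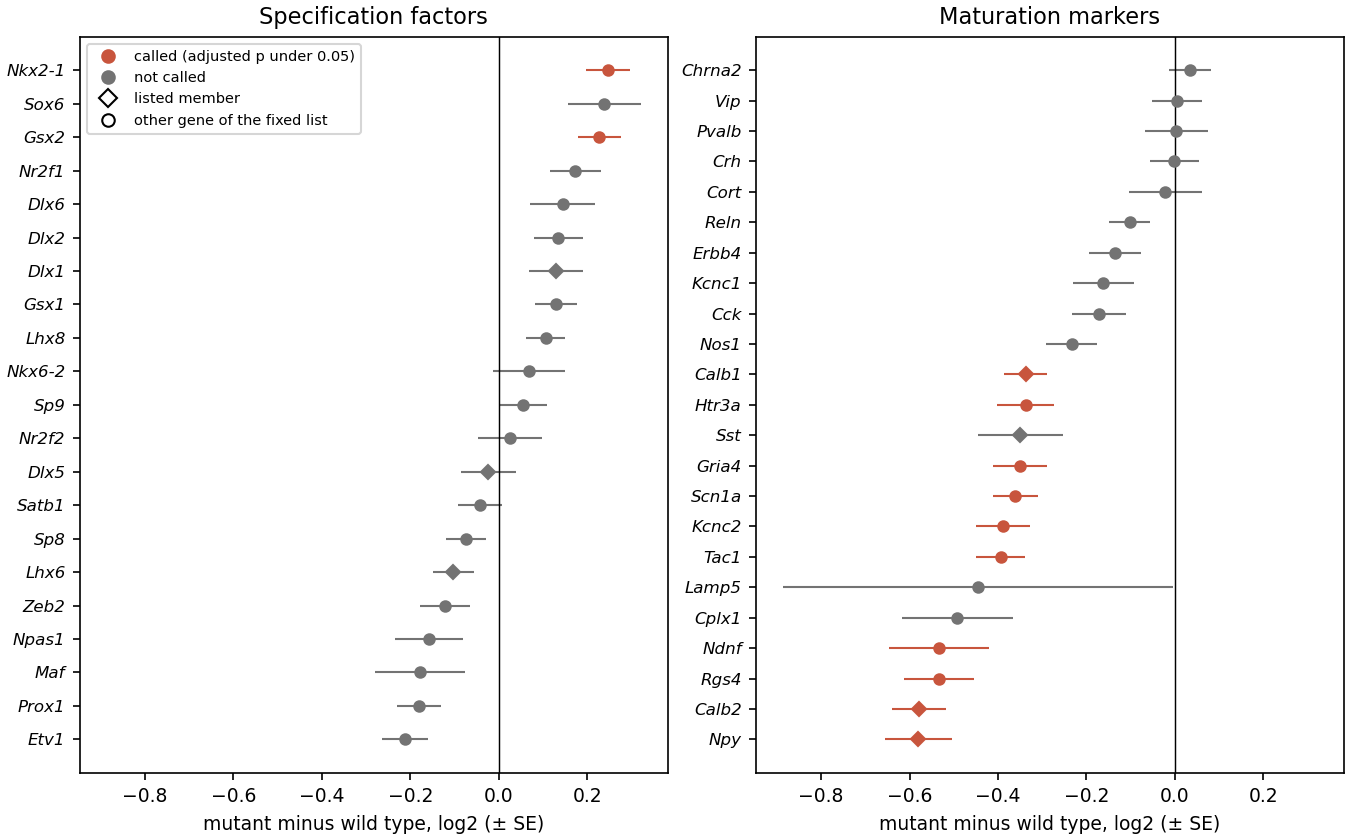
Difference between genotypes (x axis, mutant minus wild type, log2) with its SE for every measured specification factor (left) and maturation marker (right); diamonds are the listed members and circles the other genes of each list, red where called. The left panel spans both sides of 0 with only Nkx2-1 and Gsx2 called, and the called genes of the right panel all lie at -0.34 or lower.

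Averaged within each brain, the 3 specification members lay between -0.07 and 0.04 in the wild types and between -0.04 and 0.07 in the mutants, so the genotypes overlapped. The 4 maturation members averaged 0.18 to 0.25 in the wild types and -0.31 to -0.16 in the mutants. The 18 other specification factors also overlapped, at -0.04 to 0.01 against 0.01 to 0.03. The 19 other maturation markers did not, at 0.01 to 0.15 against -0.25 to -0.03. Mutant replicate 1 had the mildest mean among the mutants for both sets of maturation genes. These means are descriptions, and the contrast between specification and maturation was not tested.

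Of 7 measured receptor genes for these neuropeptides, 3 fell, 1 rose and 3 did not pass, with a median of -0.08. Npy1r, the Y1 receptor gene, fell by 0.69 ± 0.10 (SE; limma adjusted p = 0.0101), with wild-type values of 0.41, 0.18 and 0.32 and mutant values of -0.18, -0.46 and -0.52. Every mutant lay below every wild type, as for its ligand gene Npy. The somatostatin receptor genes Sstr1 and Sstr4 fell by 0.47 each (limma adjusted p = 0.0333 and 0.00874). Sstr3 rose by 0.19 (limma adjusted p = 0.0472), and Sstr2 was at 0.25 (limma adjusted p = 0.151). Npy2r and Npy5r were at -0.08 and 0.01 (limma adjusted p = 0.373 and 0.954). The rise of Sstr3 was lost with any 1 array left out, with array medians set equal, after cyclic loess and with all rows tested. Without mutant replicate 2 the count of receptor genes that fell was 0.

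A list of GABA transport and breakdown genes that also held chloride cotransporter genes and an inhibitory scaffold gene had 9 measured members. Of these, 4 fell and 5 did not pass, with a median of -0.26. Slc12a5, which encodes the potassium-chloride cotransporter that lowers neuronal chloride, fell by 0.63 ± 0.10 (SE; limma adjusted p = 0.0144). The GABA and betaine transporter genes Slc6a11, Slc6a13 and Slc6a12 fell by 1.09, 0.43 and 0.26 (limma adjusted p = 0.0296, 0.043 and 0.0442). These transporters are known chiefly from glia, meninges and other non-neuronal cells. Aldh5a1 and Abat, enzymes of GABA breakdown, were at -0.42 and -0.20, and Gphn, the scaffold of inhibitory synapses, at -0.19 (limma adjusted p = 0.0622, 0.151 and 0.0854). Leaving out wild-type replicate 1 gave 1 fall, leaving out replicate 2 of either genotype gave 0, and leaving out mutant replicate 3 or testing all rows gave 2, while array weights gave 7.

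Calb1 and Calb2 encode EF-hand proteins. Of 12 other genes for EF-hand calcium binders, 6 fell and 6 did not pass, with a median of -0.40. Necab1 fell by 0.96 ± 0.08 (SE; limma adjusted p = 0.00354), Caln1 by 0.87 and Vsnl1 by 0.85. Hpca, the hippocalcin gene, fell by 0.59, and Ncald and Hpcal4 by 0.43 each. The changes in Calb1 and Calb2 thus fell within the span of this list, which ran from -0.96 to 0.02. The count of falls was 3 without wild-type replicate 2 and 2 without mutant replicate 2.

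Genes of interneuron migration included 5 falls among 18 measured, 13 that did not pass and a median of -0.08. Met, the hepatocyte growth factor receptor gene, fell by 0.54 ± 0.05 (SE; limma adjusted p = 0.00453), and its ligand gene Hgf by 0.20 (limma adjusted p = 0.0356). Ntrk2, the BDNF receptor gene, fell by 0.49, the neuregulin gene Nrg3 by 0.45 and the guidance gene Sema3a by 0.20 (limma adjusted p = 0.0112, 0.0112 and 0.048). Cxcr4 and Ackr3, the chemokine receptors that guide interneurons along the cortex, were at 0.01 and 0.08 (limma adjusted p = 0.917 and 0.556), and were named after their values were seen. The count of falls was 1 without mutant replicate 2, 2 without wild-type replicate 2, 3 without any other single array and 9 with array weights.

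Markers of other cells and states were read between the same genotypes, where 4.13% of all rows were called lower and 2.34% higher. Of 19 cycling-cell genes measured, 19 were higher in the mutants, with a median of 0.56, and their mean lay between -0.40 and -0.19 in the wild types and between 0.18 and 0.34 in the mutants. Of 14 pan-neuronal genes 5 fell, with a median of -0.24, and their mean was 0.04 to 0.14 in the wild types and -0.32 to -0.03 in the mutants. Only 2 cycling-cell genes passed when mutant replicate 2 was left out. With 1 array left out, 0 to 10 pan-neuronal genes fell, and the count was 0 when wild-type replicate 1 or 2 or mutant replicate 2 was the one removed. Striatal projection neuron genes held 5 falls among 14, and glutamatergic genes 1 fall and 1 rise among 11. Midbrain and hindbrain GABAergic factors, listed together with Slc6a5, held 1 rise among 14, that of Tal2 by 0.75 (limma adjusted p = 0.0131). Single calls are not read as a change of a whole list. Astrocyte, oligodendrocyte lineage and meningeal genes held 5 falls among 10, 2 among 9 and 3 among 10. Leaving out 1 array gave 1 to 6 striatal, 0 to 6 astrocyte, 0 to 4 oligodendrocyte and 1 to 4 meningeal falls, and Tal2 lost its call when replicate 2 of either genotype was removed. The glutamatergic fall was lost when replicate 2 of either genotype was removed. The glutamatergic rise was lost when any array but mutant replicate 1 was removed, and also with equal array medians, after cyclic loess and with all rows tested. Because levels are centred away, it could not be read which of these markers were near background, and their part in the interneuron results was not tested.

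**Figure D3:**
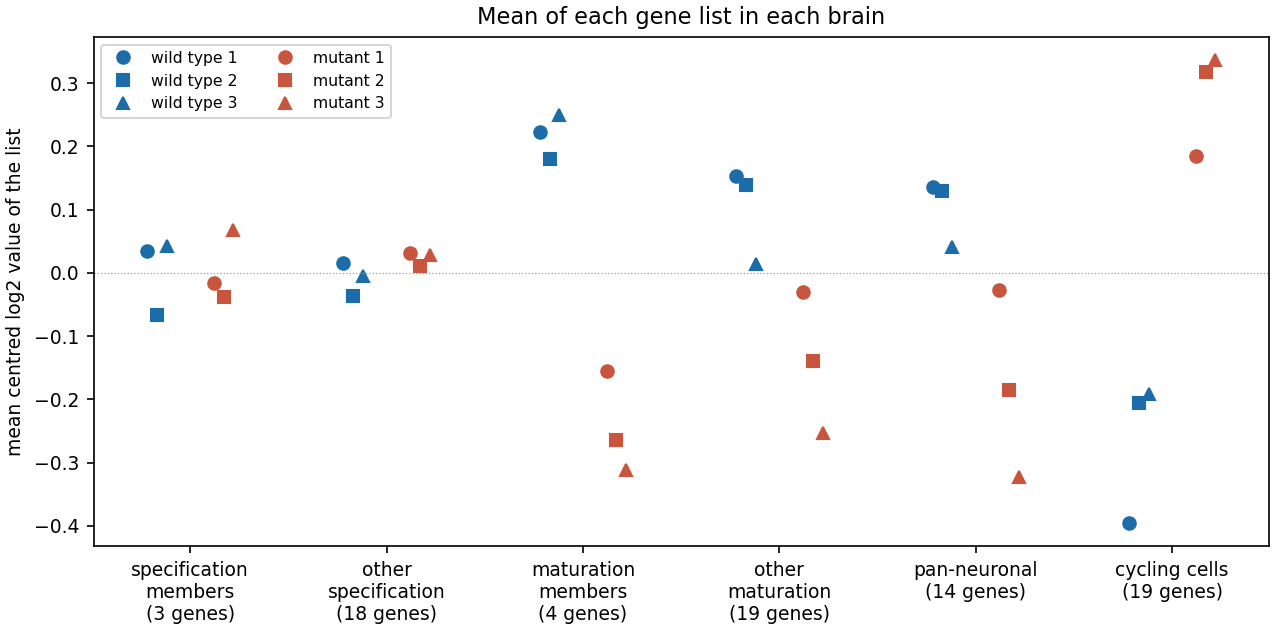
Mean centred log2 value (y axis) of each gene list in each brain, wild type in blue and mutant in red, with the marker shape giving the replicate number. Means of the specification lists lie near 0 in both genotypes, over genes whose differences lie on both sides of 0. Maturation and pan-neuronal lists are lower in all mutants, and cycling-cell genes are higher in all mutants.

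**Figure D4:**
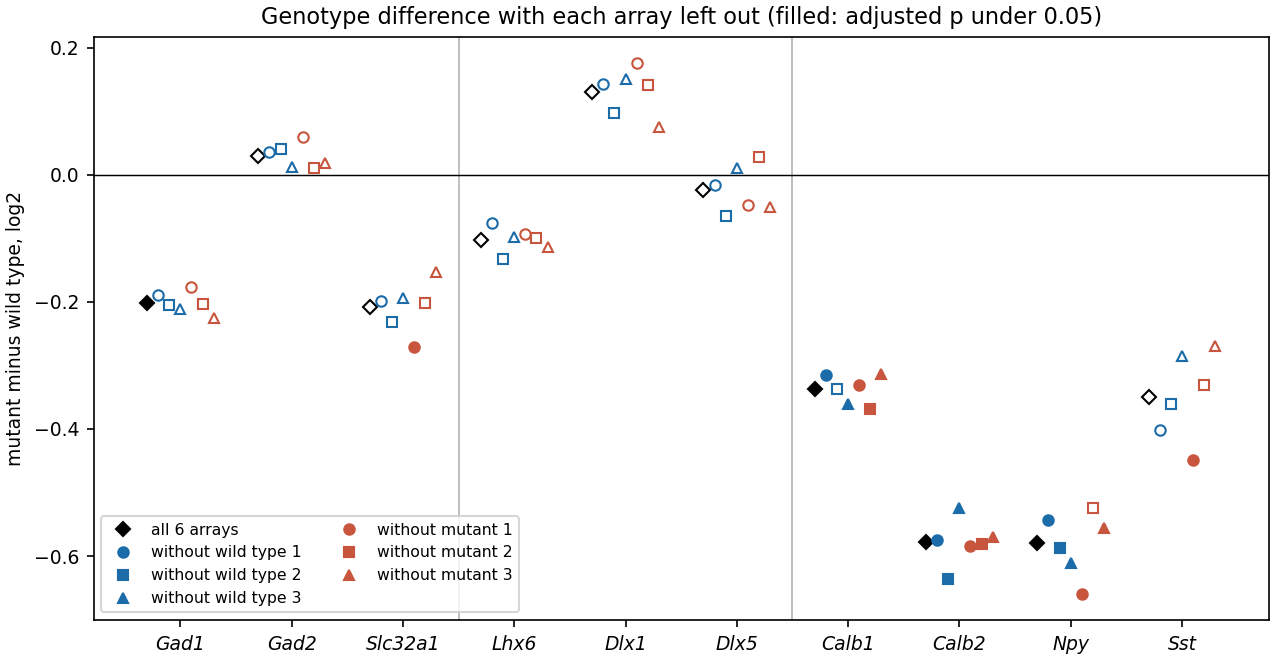
Difference between genotypes (y axis, mutant minus wild type, log2) of each member with all 6 arrays (black) and with each array left out, filled where the limma adjusted p was under 0.05. Calb2 is filled throughout, Calb1 and Npy each lose 1 call, and Gad1 is filled with all arrays only.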

How the data were processed

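Whole-brain RNA of 3 wild-type and 3 Tdp2Δ1-3 embryos was grouped by the sample titles. The deposited values are log2; the authors normalized them with RMA, per the series text, and Affymetrix Expression Console is named in the submitters' processing notes. Row medians were 0 (largest deviation 5e-07), so rows were centred by a step that no label or header records; the genome build was not given in the sources used here. Of 28856 rows, 23410 named a gene and were tested with limma 3.58.1 in R 4.3.3 (lmFit, eBayes, two-sided, Benjamini-Hochberg over all tested rows; called at an adjusted p under 0.05). Genes took the single-gene row with most accessions, with symbols updated through RefSeq (GRCm38.p6). Top2a, counted among the cycling-cell genes, had rows that disagreed in call. The row used was at 0.72 (limma adjusted p = 0.011) and the other at 0.04 (limma adjusted p = 0.687). Of the other genes named in the text 0 had rows that disagreed in call. Intervals are limma's 95% intervals for single genes. On simulated data for this comparison (5 rounds, 23410 rows, 200 changed), 85.2% of 1.5-fold and 98.4% of 2-fold changes were recovered and 3.65% of calls were false. Smaller changes were not simulated. The simulated noise was normal, independent between rows and of equal variance on all arrays, while the array weights of these data ran from 0.445 to 3.652. These rates therefore do not measure recovery or false calls in the real comparison. The members and lists were chosen with earlier results of these data known. Named genes were the members, Tdp2, the called genes of the interneuron lists, some of smallest p, and those said to be chosen after their values were seen. Called genes of the lists of other cells and states were counted but mostly not named. Microglial, choroid plexus, red-cell, radial glial and endothelial markers were also run. Of these lists 0 of 10, 1 of 9, 0 of 10, 1 of 10 and 1 of 10 were lower. The genes called higher numbered 0, 0, 2, 2 and 0. The largest red-cell difference, 3.79, was also the largest rise over all rows, while the median of that list was 0.04. The alternatives tried were a replicate block, leave-one-out fits, equal array medians, cyclic loess, array weights, all rows, single-gene rows only and a robust variance prior. Members have no second row to compare. Promoters came from RefSeq and figures from matplotlib 3.10.9.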

Additional observations from a re-analysis of the deposited data

How the results depend on the processing

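Of the 10 genes, Calb2, Calb1, Npy, Sst, Slc32a1, Gad1, Lhx6, Gad2 and Dlx1 kept their sign in all 13 alternatives, while Dlx5 ran from -0.065 to 0.028 with 1 array left out, turning to 0.011 without wild-type replicate 3 and to 0.028 without mutant replicate 2; the cause was not tested. A gene whose groups are separate keeps its sign by construction when 1 array is removed. The members called lower numbered 2 to 5 with 1 array left out, and those called at 1.5-fold 0 to 2. Array weights gave 1 member called higher, and added Slc32a1 and Sst to those called lower. The weights were 0.445, 3.652 and 0.703 for wild-type replicates 1, 2 and 3, and 0.517, 2.247 and 0.755 for mutant replicates 1, 2 and 3. All counts with array weights thus rest mostly on replicate 2 of each genotype. At 1.5-fold the count was 2 with equal medians, 1 after cyclic loess and 1 with array weights. Over all rows, 967 were lower and 548 higher; with 1 array left out 113 to 1639 were lower and 32 to 862 higher, and with array weights 2781 and 2644. With 1 array left out, falls ranged from 0 to 9 for other maturation markers, 1 to 3 for migration genes, 0 to 4 for the GABA and chloride transport list, 0 to 3 for receptors and 2 to 8 for EF-hand genes. Rises ranged from 0 to 3 for other specification factors and were 0 for receptors. Array weights gave 11 maturation, 9 migration and 7 GABA and chloride transport falls, and 6 specification and 2 receptor rises. Cyclic loess gave 1 specification rise and 0 receptor rises, equal medians 0 receptor rises, and all rows 2 GABA and chloride transport falls and 0 receptor rises.

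The series text speaks of pairs of brains without tying them to the replicate numbers. Same-numbered brains deviated together with r = 0.21, 0.05 and 0.20 for numbers 1, 2 and 3, across rows that are not independent. Among different-numbered brains, mutant replicate 2 and wild-type replicate 3 had r = 0.06. All other different-numbered r were negative, from -0.22 to -0.02. These values do not settle whether the numbers mark pairs. No label states it, so the main fit did not use the numbers as pairing. With the replicate number as a block, 1496 rows were lower and 904 higher, and the members called lower were the same 4 genes.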

Other observations

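Lamp5, a marker of neurogliaform interneurons that was singled out after its values were seen, had the largest SE of the maturation list. Its centred log2 values were 0.42, 0.35 and -0.52 in wild-type replicates 1, 2 and 3 and 0.57, -0.35 and -1.30 in mutant replicates 1, 2 and 3. Replicate 3 was the lowest of each genotype, the genotypes overlapped, and the difference of -0.45 ± 0.44 (SE) did not pass (limma adjusted p = 0.639). Ndnf, also used as a marker of those cells, was called lower with an SE of 0.11. Slc6a5 and Pax2, of the midbrain and hindbrain list, also had replicate 3 lowest in each genotype. Both were chosen after their values were seen. Slc6a5 had wild-type values of 0.88, 0.71 and -0.38 and mutant values of 0.38, -0.48 and -0.81. Pax2 had 0.26, 0.29 and -0.27 against 0.47, -0.26 and -0.67. Neither was called. In the same list replicate 3 was also lowest in each genotype for Gata2, Tal1, Zfpm1, Lhx1 and Lbx1. Gata3, Tal2, Helt, Sox14, Ptf1a, Lhx5 and Tfap2b did not have this order. It was seen in the means of the other maturation markers (0.15, 0.14 and 0.01 in wild types, -0.03, -0.14 and -0.25 in mutants). The GABA and chloride transport list had it too (0.25, 0.18 and 0.06, then -0.07, -0.19 and -0.35). The mean of the 4 maturation members was lowest in replicate 2 of the wild types. The reason for this order was not tested.

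Necab1 and Met, singled out after their values were seen, did not overlap between genotypes. Met had wild-type values of 0.21, 0.27 and 0.37 and mutant values of -0.25, -0.21 and -0.31, and Necab1 had 0.43, 0.36 and 0.37 against -0.36, -0.67 and -0.67. Both are expressed in excitatory as well as inhibitory neurons.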
